A study of Drosophila melanogaster with 2 samples.

Results

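The genes described here encode translation initiation factors and aminoacyl-tRNA synthetases of Drosophila melanogaster, 77 of the 13968 protein-coding genes on the chromosome arms. They were taken by symbol alone: names that begin with eIF, without the exon junction helicase eIF4A3, and names made of amino acid codes followed by RS, with -m for the mitochondrial enzymes. This gave 44 initiation factor genes, 18 cytosolic and 15 mitochondrial synthetase genes. Synthetase genes without -m are called cytosolic by symbol only, and whether any of them also encodes a mitochondrial enzyme was not checked. Binding was measured by chromatin immunoprecipitation and sequencing in whole embryos aged 0 to 18 h, of a strain in which an insertion targets homeobrain (hbn) and which expresses an hbn-eGFP fusion; hbn encodes a homeodomain transcription factor. The 2 biological replicates, both of this fly line, form 1 group; chromatin sonicated to 200 to 800 bp was immunoprecipitated through the GFP tag. What drives the fusion is not given in the sources used here, no untagged embryos were analysed here, and a bulk sample cannot tell binding in few cells from weak binding in many. The deposited peak lists are of 2 kinds. Ranked lists hold every candidate entry with its irreproducible discovery rate (IDR), which is low where an entry keeps its rank between repeated peak calls, and thresholded sets hold only peaks with a low IDR. The thresholded set named conservative, made from both replicates, held 3592 peaks on the chromosome arms, and the sets of replicate 1 and replicate 2 held 3274 and 2185. The files give no read depth, and the intervals below take in only how many genes were counted. Distances are in bp from a transcript start, negative when upstream.

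In translation initiation, eIF2 carries the initiator tRNA to the small ribosomal subunit, eIF2B recharges eIF2 with GTP, and the many-subunit eIF3 holds the initiation complex together. The cap-binding eIF4E, the helicase eIF4A and the scaffold eIF4G recruit the mRNA. Aminoacyl-tRNA synthetases join each amino acid to its tRNA, with separate nuclear genes for many of the cytosolic and mitochondrial enzymes. Promoters of such housekeeping genes in flies often carry the DNA replication-related element, TATCGATA, which is bound by the factor DREF, or motif 1, which contains GGTCACAC.

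TATCGA lay within 100 bp of the strongest summit at 23 of the 36 genes with a summit (63.9%). This is near the 61.3% of all protein-coding genes with a summit. The copy nearest to the summit is shown in capitals for 10 of them, taken from the 3 classes so that its flanks can be compared. Each line runs 5′ to 3′ on the strand that reads TATCGA, from RefSeq's Release 6 (dm6).
eIF3f1: ccccacccgcacTATCGAtaggcccttttc
eIF2gamma: aactgcgatgcgTATCGAtagagtgccgcc
eIF3a: atcggcctgaacTATCGAtaacgcagccag
eIF2alpha: tacgcaattaaaTATCGAtaacaccactgt
eIF2A: gtgtacgcggtgTATCGAtaagcgatagta
eIF4E1: accgaaggcagcTATCGAttgttgaacagg
TrpRS: gataatgagaaaTATCGAtggattgcaaat
AlaRS: aactggatgagaTATCGAtagatttagaga
IleRS: atgggttcgcgaTATCGAtagtaggttccg
AspRS-m: gaatacacgatcTATCGAttgtttatgcgg
The eIF3f1 site lies at chr3R:4714173-4714202 on the minus strand, the eIF2gamma site at chr3R:15263516-15263545 and the TrpRS site at chr3R:9266973-9267002, both on the plus strand. The sites of AlaRS (chr2L:8381764-8381793), AspRS-m (chr2L:16827048-16827077) and eIF4E1 (chr3L:9402467-9402496) are on the plus strand too. Those of eIF3a (chr3R:4433916-4433945), eIF2alpha (chrX:16446989-16447018), eIF2A (chr3L:21824866-21824895) and IleRS (chr3L:22288613-22288642) are on the minus strand. In eIF3f1, eIF2gamma, eIF3a, eIF2alpha, eIF2A, AlaRS and IleRS the bases after the capitals complete the full palindrome TATCGATA, while the sites of TrpRS, eIF4E1 and AspRS-m end after TATCGAT. Summits of 6 genes (16.7%) had GGTCACAC within 100 bp, the other element sought, against 8.77% of all genes with a summit. They are shown with it in capitals.
GlnRS: cggtccggaacGGTCACACtgacctgcaca
eIF2alpha: ggattgcttctGGTCACACtggaaaggtgg
eIF2A: gtgcttgaattGGTCACACacggttgccgt
eIF2beta: aaaactcagccGGTCACACcgtctgattgc
eIF3l: tatcgatagttGGTCACACtgtttatccct
AspRS-m: atgcggcatatGGTCACACttcatcgctgc
On the minus strand lie the sites of GlnRS (chr3R:25265705-25265734), eIF2A (chr3L:21824894-21824923), eIF2beta (chr3L:12526695-12526724) and eIF3l (chr3L:12146086-12146115), and on the plus strand those of eIF2alpha (chrX:16447040-16447069) and AspRS-m (chr2L:16827072-16827101). GlnRS and eIF2beta carried this site without a TATCGA in the same window. In eIF3l a TATCGATA stood 3 bases before it on the same strand.

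Initiation factor and cytosolic synthetase genes had a summit at their own start at a higher share than protein-coding genes at large, and mitochondrial synthetase genes at a lower one. A gene counts here when a conservative summit lay within 500 bp of any of its own transcript starts. This held for 36 of the 77 genes (46.8%, Wilson 95% interval 36.0 to 57.8), against 26.5% of all protein-coding genes. By class it held for 23 of 44 initiation factor genes (52.3%, 37.9 to 66.2), 11 of 18 cytosolic synthetase genes (61.1%, 38.6 to 79.7) and 2 of 15 mitochondrial synthetase genes (13.3%, 3.74 to 37.9). The interval of the mitochondrial class includes the share of all genes, so a difference was not detectable with this number of genes. When only the nearest start was credited, as described below, the share of all protein-coding genes was 20.1%. The intervals of the cytosolic class and of the 77 genes together then included that share. The classes were not compared by a test, since the genes were chosen with results of these data known.

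In each replicate's own peaks the order of the classes was the same. Replicate 1's set had summits at 35 of the 77 genes, 21 initiation factor, 12 cytosolic and 2 mitochondrial synthetase genes, against 24.5% of all protein-coding genes. Replicate 2's smaller set had them at 27 of the 77 genes, 17, 9 and 1 by class, against 17.6% of all genes. In the other thresholded set made from both replicates, called pooled here, the counts were 21, 11 and 2, against 26.6% of all genes.

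**Figure D1:**
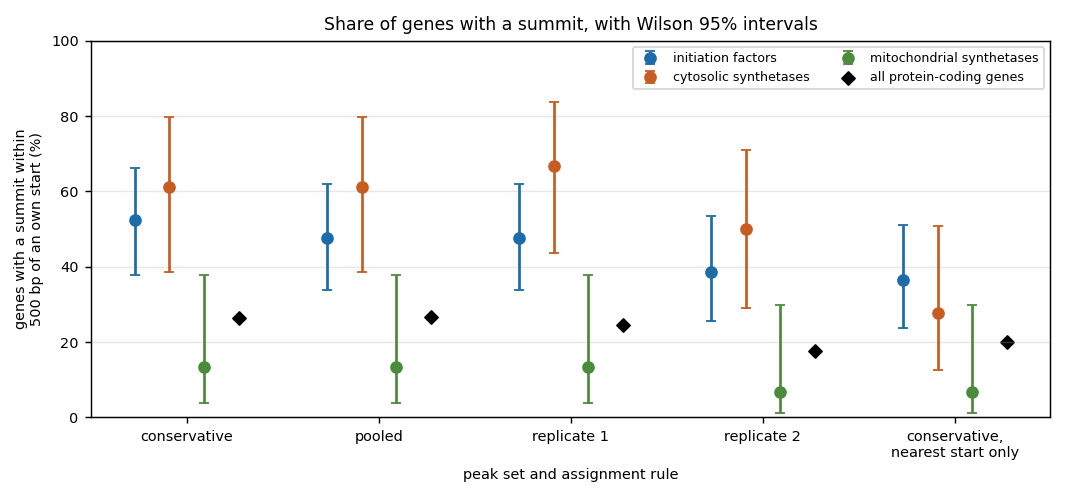
Share of genes with a summit within 500 bp of an own start (vertical axis, percent) in 5 combinations of peak set and assignment rule (horizontal axis), for the 3 classes (circles, with Wilson 95% intervals) and all protein-coding genes (diamonds). In the conservative set the circles stand at 52.3%, 61.1% and 13.3%, beside 26.5% for all genes, and under the rule that credits only the nearest start the initiation factors and cytosolic synthetases come closer to all genes.

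The strength of binding at these genes ran from percentile 6.74 to percentile 98.4 of the conservative list. Strength is given as the enrichment signal in the peak files; its scale is unstated, so values are compared only inside 1 file. Over the 36 genes the strongest own-start summit had a median signal of 174, with a range of 36.5 to 532, against a median of 155 over all 3696 protein-coding genes with such a summit. In percentiles of the conservative list the medians were 67.7 for the 36 genes and 62.6 for all genes with a summit. The medians were 175 in initiation factors and 173 in cytosolic synthetases, whose ranges overlapped.

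**Figure D2:**
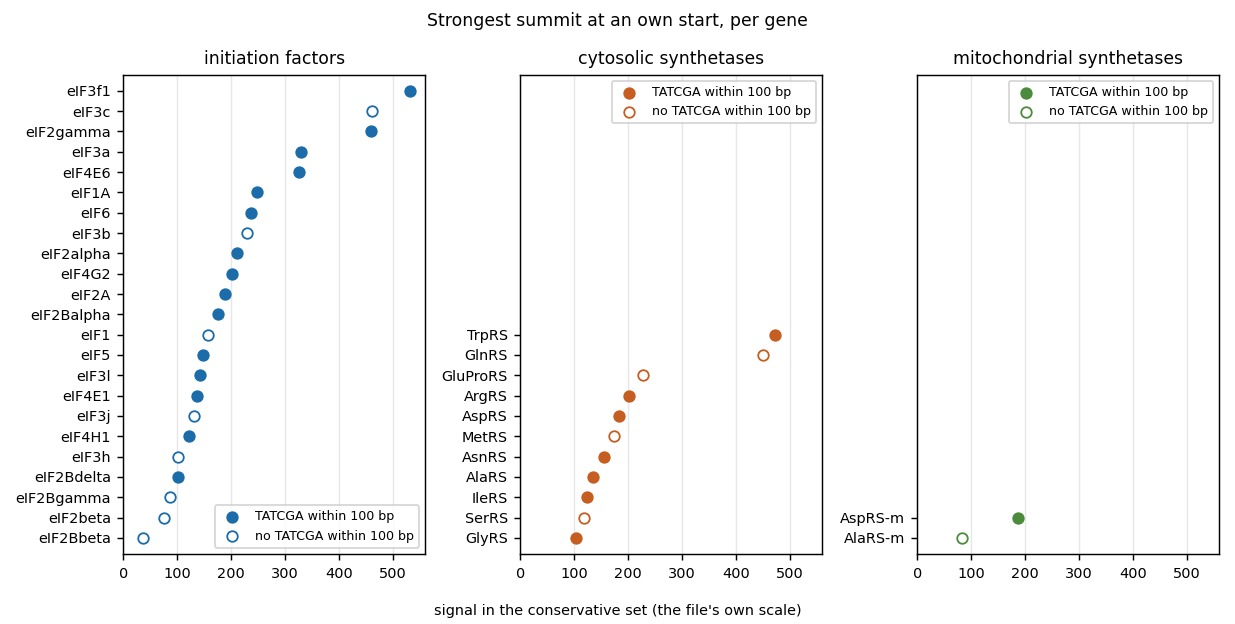
Signal of the strongest own-start summit in the conservative set (horizontal axis, the file's own scale) for each gene with such a summit, by class. Filled points have TATCGA within 100 bp of the summit and open points do not; eIF3f1 is highest at 532 and eIF2Bbeta lowest at 36.5.

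Every gene of the eIF2 complex, the carrier of the initiator tRNA, had a summit, 3 of 3 against 26.5% of all protein-coding genes. No interval was computed for a group this small. The GTP-binding subunit eIF2gamma had a signal of 460 at chr3R:15263350-15263646, with 273 in replicate 1 and 187 in replicate 2. The summit lay at −62 bp and also within 500 bp of the starts of Su(var)3-9 and Set, and the start of another gene was nearer. eIF2alpha, the subunit phosphorylated under stress, had 210 at chrX:16446918-16447098 (150 and 49.7 in replicates 1 and 2), at −27 bp, with no other gene's start within 500 bp. eIF2beta was weak, with a signal of 74.7 and a summit 110 bp inside the gene, in its 5' UTR, and was in neither replicate's own set. Of the eIF2B subunit genes, which encode the exchange factor for eIF2, 4 of 5 had a summit, against the same 26.5%. They were eIF2Balpha at 175 (nearer to the start of Vps13B), eIF2Bdelta at 100.3, eIF2Bgamma at 86.1 and eIF2Bbeta at 36.5. The catalytic subunit gene eIF2Bepsilon had none, and its strongest ranked entry had a signal of 53.2 and a −log10 IDR of 0.196, against a minimum of 2.00 in the conservative set.

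The eIF3 genes were divided, with summits at 7 of 16, against 26.5% of all protein-coding genes. eIF3f1 had the strongest summit of all 77 genes, a signal of 532 at chr3R:4714056-4714391, at −27 bp from its only start, with 328 in replicate 1 and 210 in replicate 2. Those values rank at percentiles 99.88 and 99.94 of the replicates' own ranked lists. eIF3c and the scaffold gene eIF3a followed with 461 and 329, at −51 and −40 bp, the eIF3a summit being nearer to the start of CG1074. Next came eIF3b (229), eIF3l (141), eIF3j (131) and eIF3h (100.4). The eIF3b summit lay at −284 bp and nearer to the start of another gene, and those of eIF3j and eIF3h lay at 46 and 54 bp, inside the genes. No conservative summit lay at eIF3d1, eIF3d2, eIF3e, eIF3f2, eIF3g1, eIF3g2, eIF3i, eIF3k or eIF3m. The complex thus holds the strongest summit of the 77 genes and 9 genes without one.

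Among the cap-binding genes, the main cytosolic form eIF4E1 had a signal of 136 (89.5 and 44.4 in replicates 1 and 2), with its summit at −24 bp. eIF4E6, another member of the family, had 325 (230 and 101), but its summit, at −59 bp, lay nearer to the start of CG1951. eIF4E3, eIF4E4, eIF4E5, eIF4E7 and the translational repressor eIF4EHP had no summit. The count in this family, 2 of 7, is near the 26.5% of all protein-coding genes. The eIF4G2 gene, a testis-enriched form of the scaffold, had 202, while eIF4G1 on chromosome 4 had a summit only in replicate 1's own set, where its signal was 62.5. eIF4H1 had 121, and eIF4H2 and eIF4B had none. With eIF4A, described below, this makes 2 of 6 for the helicase, scaffold and accessory genes, also near that share.

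Of the remaining factors, eIF1, eIF1A, eIF5, eIF5B, eIF6, eIF2A and eIF2D, 5 of 7 genes had a summit, against 26.5% of all protein-coding genes. At 3 of the 5 another gene's start was nearer. eIF1A, which helps the ribosome scan, had a signal of 247 (159 in replicate 1 and 91.4 in replicate 2) at −140 bp, nearer to the start of Vps39. eIF6, which keeps the large subunit from joining early, had 236 (142 and 96.2) at −20 bp, with no other start within 500 bp. eIF2A, which can deliver tRNA in place of eIF2, had 189. eIF1 had 156 and eIF5, which stimulates GTP hydrolysis by eIF2, had 147, and these summits too lay nearer to other genes, at −192 and −424 bp, RpL28 being within 500 bp of the first and exd of the other. The subunit-joining GTPase eIF5B and eIF2D had none.

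Paralogous initiation factor genes could be set side by side. Beside the 532 of eIF3f1, its paralogue eIF3f2 had no ranked entry within 500 bp in either replicate. eIF4H1 was in the conservative set and eIF4H2 had a ranked entry of signal 13.8. For the pairs eIF3d1 and eIF3d2, and eIF3g1 and eIF3g2, neither member had a summit.

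The eIF4A gene is a separate case, because it was absent from every thresholded set although its ranked entry was strong. This helicase gene had an entry of signal 318 at chr2L:5981506-5981788, at −73 bp, with the highest deposited −log10 IDR, 5, and the highest score, 1000. In the replicates' own ranked lists it reached percentiles 99.56 and 99.52, with signals of 231 and 124. It is 1 of 124 ranked entries on the chromosome arms that were at or past the threshold of the conservative set and are not in it; what removed them is not given in the sources used here. The site nearest to its summit is printed because it holds TATCGATA, which 17 of the 36 genes with a conservative summit also had within 100 bp.
eIF4A: tggcgatcgatcTATCGAtagtcgctaatg
The site lies at chr2L:5981700-5981729 on the plus strand. Adding these 124 entries, an alternative chosen after the data were seen, gave 24 of 44 initiation factor genes and left both synthetase counts as they were, against 27.0% of all protein-coding genes.

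The cytosolic synthetases with a summit were led by TrpRS, the tryptophan enzyme, and GlnRS, the glutamine enzyme. TrpRS had a signal of 473 at chr3R:9266828-9267134 (282 and 198 in replicates 1 and 2), and GlnRS 451 at chr3R:25265656-25265921 (310 and 121). GluProRS, a fused enzyme for glutamate and proline, had 227, ArgRS 202, AspRS 183 and MetRS 173. AsnRS (154), AlaRS (134), IleRS (124), SerRS (117) and GlyRS (104) made up the lower end. The lowest percentile in this class, that of GlyRS, was 42.6. CysRS, HisRS, LeuRS, LysRS, ThrRS, TyrRS and ValRS had none. All 7 had a ranked entry within 500 bp, with signals of 20.3 to 87.3, as did 14 of the 21 initiation factor genes without a summit and 68.5% of all protein-coding genes without one. LeuRS, the highest of the 7, was in replicate 1's own set (57.8 in replicate 1 and 29.4 in replicate 2).

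Only 2 mitochondrial synthetase genes had a summit, and only AspRS-m was in both replicates' own sets. AspRS-m, the mitochondrial aspartate enzyme, had a signal of 187 at chr2L:16826980-16827105 (116 and 91.8 in replicates 1 and 2), at −19 bp. AlaRS-m had 82.5 at chr3L:5145844-5146303, at −24 bp, was in neither replicate's own set, and its summit lay nearer to the start of Fitm. The other 13 each had a ranked entry within 500 bp, against 68.5% of all protein-coding genes without a summit, with a median signal of 44.5 and a range of 8.73 to 74.0. GluRS-m held the highest of these values, and it was called in replicate 1's own set (58.1) but had no ranked entry in replicate 2. Uncalled genes with a ranked entry had a median of 32.3 over all protein-coding genes.

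For 12 amino acids the symbols pair 1 cytosolic with 1 mitochondrial gene, and these can be read side by side. Outside these pairs, the fused GluProRS had a summit while GluRS-m and ProRS-m had none, and PheRS-m had none, its cytosolic counterparts being the separately named alpha-PheRS and beta-PheRS. For Ala and Asp both genes had a summit. In the Arg, Asn, Ile, Met, Ser and Trp pairs only the cytosolic gene had one. Of these cytosolic genes IleRS and SerRS had their own start nearest to the summit. The summits at ArgRS, AsnRS, MetRS and TrpRS lay nearer to another gene's start, as did those at AspRS and AlaRS-m. Neither gene had one for Cys, Leu, Tyr and Val, and no pair had a summit at the mitochondrial gene only. In the Trp pair, TrpRS had 473, while TrpRS-m had a ranked entry of signal 55.3 at 313 bp, with a −log10 IDR of 0.147.

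Most summits at the 36 genes lay just upstream of the start. The median position was −56.5 bp, 31 of 36 were upstream and 25 lay within 100 bp of an own start; over all genes with a summit the median was −60.0 bp, 82.0% were upstream and 60.3% lay within 100 bp. By annotation, 29 summits lay upstream of the gene, 6 in the gene's own 5' UTR and 1, at eIF3h, in a coding exon. A second summit was present at 6 genes: eIF1, eIF6, AlaRS, ArgRS, AsnRS and AspRS-m.

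**Figure D3:**
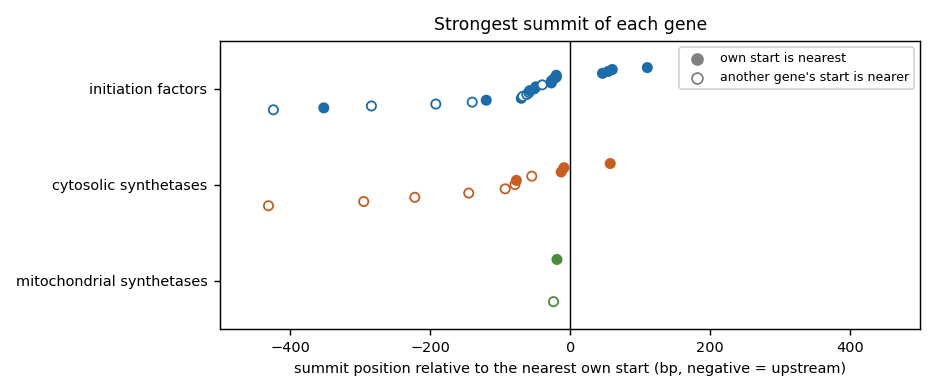
Position of each gene's strongest summit relative to its nearest own start (horizontal axis, bp, negative upstream) by class. Filled points mark summits for which the gene's own start is the nearest protein-coding start, and open points those with another gene's start nearer; points cluster between 0 and 100 bp upstream, and 7 of the 11 cytosolic synthetase points are open.

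Many of these promoters are shared with another gene, most often among the cytosolic synthetases. Of the 18 cytosolic synthetase genes, 16 (88.9%, Wilson 95% interval 67.2 to 96.9) had the start of a gene on the other strand within 1 kb upstream, against 36.2% of all protein-coding genes; AlaRS and CysRS were the exceptions. Initiation factor genes had such a partner in 47.7% of cases and mitochondrial synthetase genes in 46.7%. Of the strongest summits, 10 of 11 at cytosolic synthetase genes lay within 500 bp of another gene's start as well, and in 7 of 11 that start was the nearer. The nearer start was that of Vps16A at TrpRS and of RIOK2 at GlnRS, while GluProRS and IleRS had their own start nearest, with AP-1sigma and Hem also within 500 bp. When a summit was credited only to the gene with the nearest start, the counts were 16 initiation factor, 5 cytosolic and 1 mitochondrial synthetase genes, 22 of 77 in all, against 20.1% of all protein-coding genes. This rule takes in every summit, second ones too. Among strongest summits alone the own start was nearest at 15 of 23 initiation factor and 4 of 11 cytosolic synthetase genes. Under that rule the cytosolic share was 27.8% (12.5 to 50.9) and the initiation factor share 36.4% (23.8 to 51.1). The share of all 77 genes was 28.6% (19.7 to 39.5). The intervals of the cytosolic class and of the 77 genes include the 20.1% of all genes, and that of the initiation factors lies above it. The peak list cannot assign a summit between divergent starts to either gene.

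Within promoters of 1 kind the classes were set beside all genes again. Where a divergent start lay within 1 kb, a summit was present at 14 of 21 initiation factor genes (66.7%, 45.4 to 82.8), 10 of 16 cytosolic (62.5%, 38.6 to 81.5) and 1 of 7 mitochondrial synthetase genes, against 46.4% of all such genes. Without one it was present at 9 of 23 initiation factor genes (39.1%, 22.2 to 59.2), 1 of 2 cytosolic and 1 of 8 mitochondrial synthetase genes, against 15.2%. The share of initiation factors was above that of all genes in both kinds of promoter. In the divergent kind its interval included the share of all genes, as did that of the cytosolic synthetases. The difference between the kinds was not tested.

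**Figure D4:**
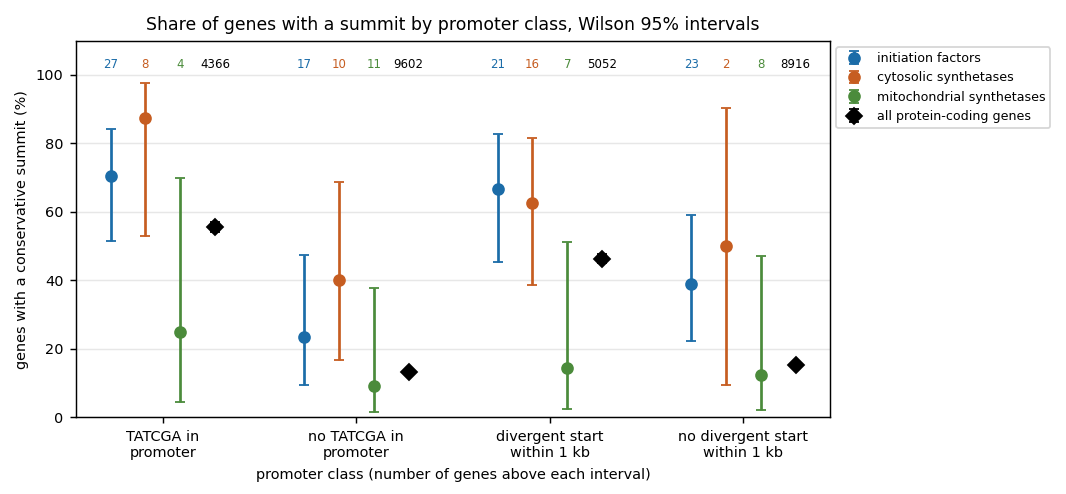
Share of genes with a conservative summit (vertical axis, percent) by promoter class (horizontal axis) for the 3 classes (circles) and all protein-coding genes (diamonds), with Wilson 95% intervals and the number of genes above each. Shares are higher with TATCGA in the promoter than without it in the 3 classes and over all genes, as in the initiation factors with 70.4% against 23.5%; in the mitochondrial synthetases these are 1 of 4 and 1 of 11 genes.

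At the summits of these genes TATCGA stood at a share near that of other bound promoters. It was searched on both strands within 100 bp of the strongest summit, and it forms part of TATCGATA. It was present at 23 of 36 genes (63.9%, Wilson 95% interval 47.6 to 77.5), against 61.3% of all genes with a summit. The full TATCGATA was present at 17 (47.2%, 32.0 to 63.0), against 27.7%, so here the interval lay above the share of all genes. All 7 cytosolic synthetase genes with TATCGA had the full form: AlaRS, ArgRS, AsnRS, AspRS, GlyRS, IleRS and TrpRS. The centre of the nearest TATCGA lay a median of 14.5 bp from the summit, and within 25 bp of it at 16 of 23 genes. At 12 genes more than 1 separate site lay in the window, with the most, 4, at eIF2gamma and at eIF5. Summits with TATCGA had a median signal of 187 (range 100.3 to 532) and those without it 131 (36.5 to 461). Over all promoter summits these medians were 183 and 86.8. That set holds every summit near a start and not only the strongest of each gene, so the levels are not directly comparable. The ranges with and without TATCGA overlapped at the 36 genes. GGTCACAC was present at 6 of 36 genes (16.7%, 7.87 to 31.9), and the interval includes the 8.77% of all genes with a summit.

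Promoters were also searched at their starts, whether or not a peak was there. In the stretch from 250 bases before to 50 after any own start, TATCGA was present in 27 of 36 genes with a summit (75%) and in 12 of 41 without one (29.3%); over all protein-coding genes the shares were 65.7% and 18.8%, and 31.3% of all promoters held it. By class, the promoters of 27 of 44 initiation factor genes (61.4%, 46.6 to 74.3), 8 of 18 cytosolic (44.4%, 24.6 to 66.3) and 4 of 15 mitochondrial synthetase genes (26.7%, 10.9 to 52.0) held it. The intervals of both synthetase classes include the share of all promoters. Among promoters with TATCGA, a summit was present at 19 of 27 initiation factor, 7 of 8 cytosolic and 1 of 4 mitochondrial synthetase genes, against 55.7% of all such genes. Without TATCGA it was present at 4 of 17, 4 of 10 and 1 of 11, against 13.2%. The initiation factor intervals were 51.5 to 84.1 with TATCGA and 9.56 to 47.3 without it, and both include the share of all such genes. The cytosolic intervals were 52.9 to 97.8 and 16.8 to 68.7, of which only the first includes that share. Those of the mitochondrial synthetases, 4.56 to 69.9 and 1.62 to 37.7, both include it. GGTCACAC was in the promoters of 12 of the 77 genes (15.6%, 9.15 to 25.3), against 8.69% of all. Genes with TATCGA and no conservative summit were eIF2D, eIF3g1, eIF3i, eIF4A, eIF4B, eIF4G1, eIF4H2, eIF5B, ThrRS, PheRS-m, SerRS-m and ValRS-m.

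Starts were also searched for words of the polypyrimidine initiator, a promoter sequence known from fly genes of the translation machinery. Such words were found mainly at initiation factor genes, with and without a summit. The words sought were CCTTTT along with CCTTTC, and also TCTTTT along with TCTTTC, on the sense strand and starting within 20 bp of any own start. A word in this window need not stand at the start base, so a match does not show a working initiator. At least 1 was present in 13 of 44 initiation factor genes (29.5%, 18.2 to 44.2), 2 of 18 cytosolic and 0 of 15 mitochondrial synthetase genes, against 7.63% of all protein-coding genes. Genes with a summit held such a word in 6 of 36 cases and genes without a summit in 9 of 41. Those with a summit were eIF3f1, eIF3c, eIF1A, eIF3l, eIF4H1 and eIF3h, and those without one eIF3e, eIF3g1, eIF3i, eIF3m, eIF4A, eIF4E5, eIF5B, ThrRS and TyrRS.

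Most of the 36 genes were also called from each replicate alone. Of the 36 genes, 27 were in both replicates' own sets, 5 in that of replicate 1 alone, 0 in that of replicate 2 alone and 4 in neither. Replicate 2's set is the smaller, with summits at 17.6% of all protein-coding genes against 24.5% in replicate 1's. The same split over all genes with a conservative summit is not given here. Those in replicate 1's set alone were eIF3l, eIF2Bdelta, eIF2Bgamma, ArgRS and GlyRS, and those in neither were eIF3h, eIF2beta, eIF2Bbeta and AlaRS-m. Across the 36 genes the log2 signals of the strongest ranked entry in each replicate were correlated with r = 0.86 (Pearson) and rho = 0.85 (Spearman). These describe genes that share their libraries and were all called from both replicates together. Median signals were 112 in replicate 1 and 59.0 in replicate 2, each on its own file's scale. The strongest entry of a replicate lay a median of 18 bp (replicate 1) and 18.5 bp (replicate 2) from the conservative summit, but in replicate 1 it was 370 bp away at eIF2Bbeta. At that gene replicate 1 had only 18.3, at percentile 66.44 of its ranked list, and replicate 2 had 35.0, at percentile 95.66, and the gene was not in the pooled set.

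**Figure D5:**
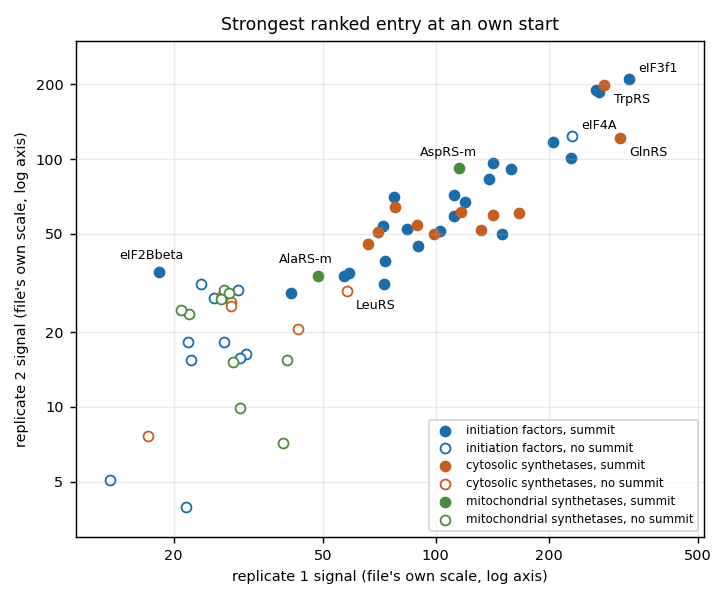
Signal of the strongest ranked entry within 500 bp of an own start in replicate 1 (horizontal axis) and replicate 2 (vertical axis), both log axes on each file's own scale, for the 62 genes with an entry in each replicate. Filled points have a conservative summit and, apart from eIF2Bbeta, lie towards the upper right; the open point of eIF4A lies among the strongest, at 231 and 124.

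Other genes of protein synthesis, from 4 lists of 35 names of which 34 matched the annotation, are given for comparison. Of 12 genes that control initiation, 10 had a summit at an own start. So did 5 of 10 elongation and termination genes and 3 of 6 mitochondrial initiation and elongation genes. The list of accessory proteins and other synthetase chains had 3 of 6. All 4 counts stand against 26.5% of all protein-coding genes. The strongest was NAT1, an eIF4G-like protein, with a signal of 524, followed by eEF1gamma, a subunit of the elongation factor 1 complex, with 312, and beta-PheRS, the beta chain of cytosolic phenylalanyl-tRNA synthetase, with 297. The Thor gene, which encodes the eIF4E-binding repressor 4E-BP, had 110, and the eIF2alpha kinase genes Gcn2 and PEK had 135.5 and 107. Genes without a summit included eEF1alpha1, the main tRNA-carrying elongation factor, and S6k, a kinase of the Tor pathway. In the mitochondrial list, mEFG1 had 193, mIF3 148 and mEFTs 144, beside 187 at AspRS-m. Among the genes that control initiation, summits lay at −433 bp at mxt, −372 bp at MCTS1, 335 bp at PEK and −279 bp at crc. Those at the other called genes of that list lay closer to a start. The counts in the 4 lists credit any start within 500 bp, and the nearest-start rule was not applied to them.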

How the data were processed

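Peak files of 2 replicates and of both together were deposited on dm6; per the deposited README files they derive from alignments and a file whose kind is unstated, and thresholded files also from another such file. The sources used here name no aligner, peak caller or version. In the list of the replicate pair, 2 signal columns could not be matched to a replicate and were not used. The signal, deposited by the authors, is an enrichment value of unstated scale. The deposited score runs to 1000 and was at least 830 in thresholded files. The deposited −log10 of the global irreproducible discovery rate (IDR) was at least 2.00 in the conservative set.

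Gene models were Ensembl release 115 (BDGP6), and sequence came from RefSeq's Release 6, the same assembly; coordinates are 1-based. Python 3.11.15, pandas 2.3.3 and scipy 1.17.1 were used. A gene's summit was the strongest within 500 bp of an own start. Shares have Wilson 95% intervals, which treat genes as independent. Assignment was tested on simulated summits and returned the same pairs as an exhaustive search. Named genes were up to 10 per class by signal, all synthetase pairs, subunits of complexes, the 5 strongest uncalled and the 3 weakest called genes; those few outside this rule were chosen after their values were seen. Members and lists were chosen with earlier results of these data known. Alternatives were the pooled and single-replicate sets, an IDR of 0.001, peaks at or above the median signal, windows of 250 and 1000 bp, the nearest start, and other motif windows. Sequences on 2R are not shown.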

Additional observations from a re-analysis of the deposited data

How the results depend on the processing

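Of 59 values under other settings, 47 kept the reported value within the limits set (a factor of 1.5 for counts) and 12 did not. Crediting the nearest start only gave 22 genes in all, 5 cytosolic and 1 mitochondrial synthetase genes, against 20.1% of all protein-coding genes. The median percentile was then 56.7. The mitochondrial count was also 1 at an IDR of 0.001 and among the stronger peaks, those with at least the median signal. The shares of all protein-coding genes there were 17.4% and 17.0%. Leaving out each replicate, with the other's own set used, gave mitochondrial counts of 1 without replicate 1 and 2 without replicate 2. The shares of all protein-coding genes were 17.6% and 24.5%. Median percentiles were 50.2 without replicate 1 and 65.4 without replicate 2. TATCGA stood at 77.8% and 65.7% of summits, and its shares over all genes in those sets are not given here. The median percentile was 47.5 at an IDR of 0.001 and 45.6 among the stronger peaks; percentiles there are taken within shorter lists. TATCGATA in place of TATCGA gave 47.2%. The counts of initiation factor genes, from 16 to 24, and of initiator words, 11 and 22 with windows of 10 and 50 bp, stayed within the factor. Over the settings behind the initiation factor counts, 17.0% to 28.8% of all protein-coding genes had a summit. The initiator shares of all genes at the other windows are not given here. No paired analysis was possible because there is 1 group.

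Depth is unknown, and few genes per class leave wide intervals.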

Other observations

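The homeodomain core TAATTA, on either strand within 100 bp of the strongest summit, was present at 5 of the 36 genes with a summit (13.9%): eIF1, eIF4E1, GlnRS, GlyRS and AspRS-m. Over all genes with a summit it was present at 13.2%. CAGCTG, a form of the E-box, was present at 8 of 36 (22.2%), against 18.8% of all genes with a summit.

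Among genes without a conservative summit, and besides eIF4A, SerRS-m and ValRS-m had TATCGA within 100 bp of their weaker ranked entries, whose signals were 42.9 and 39.7.
SerRS-m: ctttcgattattTATCGAactttttcatta
ValRS-m: ccataagccgtaTATCGAttatctcctcag
The SerRS-m site lies at chr3R:15340644-15340673 and the ValRS-m site at chr3L:8964692-8964721, both on the minus strand.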
